A study of Mus musculus with 45 samples.

Results

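The Treg core genes are a set of 10 genes commonly used to recognise regulatory T cells (Treg): Foxp3, Il2ra, Il2rb, Ctla4, Ikzf2, Ikzf4, Lrrc32, Nrp1, Gpr83 and Capg. They were chosen by name from the 27179 genes counted, with earlier results of these data known. RNA sequencing covered 45 libraries in 22 groups, in a study of how visceral adipose tissue (VAT) Treg of male and female mice differ, and the genes are described here over the 19 libraries of sorted T cells in 10 groups, with 15 of the libraries from Treg. Each T cell group has 2 libraries except where stated, and each library is a pool of 3 to 5 C57BL/6 mice. VAT Treg of males and of females were Foxp3 reporter (RFP) positive cells of 25-week-old Foxp3RFP mice, and spleen Treg of males and of females came from Foxp3RFP mice whose age the labels do not give. VAT CD4 T cells of males and of females were the RFP-negative CD4 cells of 25-week-old Foxp3RFP mice. Treg labelled Blimp1fl/flFoxp3cre, in which the Cre under Foxp3 control is expected to delete Blimp1 (gene Prdm1) in Treg, came from VAT and spleen of 25-week-old males. Foxp3cre Treg of 25-week-old males, which carry the Cre without the floxed gene, came from VAT as 1 library and from spleen, and both of these genotypes were sorted on a YFP reporter, which the text of Blimp1-deficient VAT replicate 2 does not name. The source text of the Foxp3cre VAT library speaks of spleens while its title and tissue tag say VAT, so it is read here as labelled. The Prdm1 count over the whole gene does not check the deletion, and nothing in the labels shows whether pools shared animals.

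Treg are CD4 T cells that restrain other immune cells, and Foxp3 is the transcription factor that sets their identity. They depend on interleukin-2, which they capture with a receptor containing CD25 (Il2ra) and CD122 (Il2rb), and they carry inhibitory or latent-cytokine-binding surface proteins such as CTLA-4 and GARP (Lrrc32). Treg of visceral fat are a tissue population known for dependence on PPAR-gamma and the interleukin-33 receptor, and Blimp1 is a transcription factor of effector Treg that is required for interleukin-10 in many settings. Because the cells were sorted on a Foxp3 reporter, the difference in Foxp3 between Treg and CD4 T cells is set by the sort and is no finding.

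Promoter windows are shown for Foxp3, which defines the cells, and for Il2ra and Ctla4, the members that passed the test in the same sex, tissue and Blimp1 comparisons. RefSeq windows of 300 bases on GRCm38.p6 run from 250 bases before to 50 bases after a gene's start. They were found for 6 of the 10 members (7 windows), and Il2rb, Ikzf2, Ikzf4 and Lrrc32 are named only. All windows printed lie on the plus strand, are written 5′ to 3′, and have in capitals every match to 7 motifs searched on both strands.
Foxp3 window 1, chrX:7579426-7579725: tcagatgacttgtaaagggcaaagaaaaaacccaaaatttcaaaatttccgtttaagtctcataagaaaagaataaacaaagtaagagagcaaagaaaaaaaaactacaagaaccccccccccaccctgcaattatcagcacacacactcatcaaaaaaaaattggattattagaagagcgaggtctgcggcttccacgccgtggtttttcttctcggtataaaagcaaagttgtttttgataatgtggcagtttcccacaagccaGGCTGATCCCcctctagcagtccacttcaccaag
Foxp3 window 2, chrX:7580233-7580532: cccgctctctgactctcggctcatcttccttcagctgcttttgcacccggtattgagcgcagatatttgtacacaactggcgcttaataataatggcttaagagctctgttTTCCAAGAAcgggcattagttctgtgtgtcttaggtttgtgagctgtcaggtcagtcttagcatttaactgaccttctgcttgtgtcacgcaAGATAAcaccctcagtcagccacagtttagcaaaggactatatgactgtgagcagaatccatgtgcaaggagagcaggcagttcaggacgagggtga
Il2ra, chr2:11642542-11642841: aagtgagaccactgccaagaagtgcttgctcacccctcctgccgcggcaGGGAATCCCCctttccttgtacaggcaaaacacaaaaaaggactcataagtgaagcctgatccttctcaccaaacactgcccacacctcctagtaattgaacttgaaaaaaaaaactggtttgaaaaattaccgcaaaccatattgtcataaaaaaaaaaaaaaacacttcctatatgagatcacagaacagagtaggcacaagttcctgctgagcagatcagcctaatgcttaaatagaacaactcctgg
Ctla4, chr1:60908775-60909074: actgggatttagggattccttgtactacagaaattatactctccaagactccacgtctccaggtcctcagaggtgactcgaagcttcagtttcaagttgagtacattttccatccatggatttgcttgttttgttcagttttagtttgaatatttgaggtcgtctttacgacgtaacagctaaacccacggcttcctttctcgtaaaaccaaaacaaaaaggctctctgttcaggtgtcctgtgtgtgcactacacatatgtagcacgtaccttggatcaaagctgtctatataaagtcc
The first motif was the forkhead TGTTTAC, held by 3.65% of 32851 RefSeq mouse promoter windows of the same length. STAT was searched as TTCNNNGAA, present in 8.3% of windows, and RUNX as TGTGGT, present in 16.8%. AP-1 was searched as TGANTCA, with a share of 7.81%, and GATA as AGATAA, with a share of 11.2%. An NF-kB-like motif was searched as GGGANNNNCC, found in 20.7% of windows, and the ETS core as CGGAAG, found in 16.9%. Foxp3 window 1 and the Il2ra window each hold 1 NF-kB-like match. Foxp3 window 2 holds 1 STAT and 1 GATA match, and the Ctla4, Nrp1, Gpr83 and Capg windows hold none of the 7. A match is a run of letters and not a bound site.

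The 19 libraries held between 11297674 and 61913009 counts over all genes. Levels are given as CPM, a gene's count as a share of all counts of its library on a fixed scale, corrected for library composition with TMM unless plain CPM is named. A list of 10 T cell genes summed to 4700 to 8208 plain CPM. The lowest sums were in male VAT Treg (4955 and 4700) and the Foxp3cre VAT library (4750). Of the 10, 4 were lower in male VAT than in male spleen Treg, where 6.56% of all genes were called. Between male and female VAT Treg 1 was lower in males (1.61%), and none was higher in either comparison. RNA of other cells was present to different degrees. Summed markers of macrophages, fibroblasts, endothelial cells and adipocytes reached 10569 plain CPM in VAT CD4 male replicate 2, 6627 in VAT Treg female replicate 2 and 6048 in VAT Treg male replicate 2, and 180 to 2719 in the other 16 libraries. In pooled RNA, fewer cells that express a gene and less RNA per cell cannot be told apart.

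**Figure D1:**
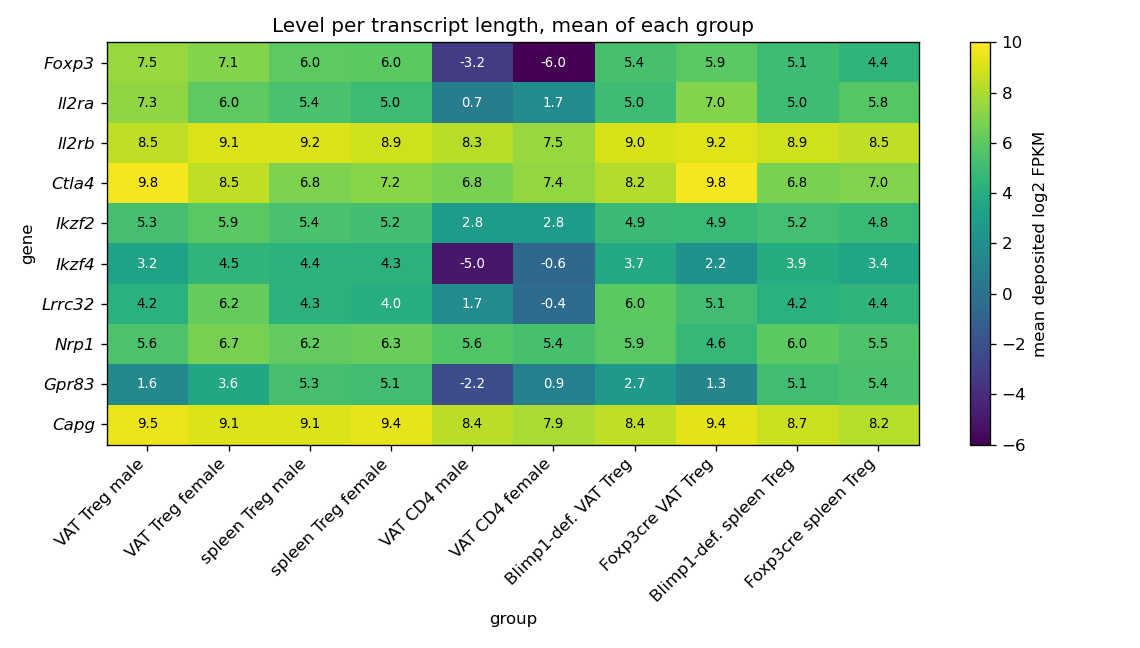
Mean deposited log2 FPKM (colour, per length of gene) of the 10 core genes in rows and the 10 T cell groups in columns. Il2rb, Ctla4 and Capg are the brightest (yellow) rows in Treg, Gpr83 and Ikzf4 the darkest, and the lowest entries belong to CD4 libraries at or near 0 counts.

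On a scale that allows genes to be compared, the authors' log2 FPKM, the members spanned a wide range of level in Treg. Some deposited values were identical in libraries whose CPM differed. Ctla4 was 9.78 in both male VAT Treg libraries, at 1815 and 1494 CPM. Il2rb was 9.20 in VAT Treg female replicate 1 and in the Foxp3cre VAT library, at 1222 and 1497 CPM. Differences between groups are therefore read from CPM. Capg, an actin filament capping protein, and Il2rb were the highest, with group means over the 8 Treg groups of 8.22 to 9.54 for Capg and 8.46 to 9.20 for Il2rb. Ctla4 followed at 6.78 to 9.78, then Foxp3 at 4.44 to 7.51, Il2ra at 4.95 to 7.35, Nrp1 at 4.64 to 6.71, Lrrc32 at 3.97 to 6.24 and Ikzf2 at 4.82 to 5.91. Ikzf4 at 2.16 to 4.45 and Gpr83 at 1.30 to 5.41 were the lowest, and these ranges overlap widely.

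Across the comparisons the core genes did not behave as a block. Il2ra and Ctla4 were higher in male than in female VAT Treg and in male VAT than in male spleen Treg, and lower in Blimp1-deficient than in Foxp3cre VAT Treg. The remaining members did not pass the test in any of these 3 comparisons. In VAT, 6 members in males and 8 in females were higher in Treg than in CD4 T cells, Foxp3 included. Calls are at an adjusted p under 0.05 from edgeR's quasi-likelihood test, adjusted with Benjamini-Hochberg over 17340 genes. All 10 members passed the filter on low counts.

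The counts of members called are read against the share of all tested genes called. In VAT Treg, male against female, 2 of 10 members were called, both higher, where 1.61% of all genes were called in either direction and 0.721% were higher. The median log2 fold change was -0.35 over the members and -0.04 over all genes. VAT against spleen gave 2 higher members in males (background 6.56%, 3.51% higher) and 1 in females (1.71%, 1.42% higher). Treg against CD4 T cells in VAT gave 6 higher members in males (2.43%, 1.34% higher) with a member median of 2.28 against 0 over all genes. The same comparison gave 8 in females (3.54%, 1.75% higher), with a member median of 3.11 against 0.21 over all genes. In both sexes the Treg against CD4 counts and medians include Foxp3, whose difference is set by the sort.

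The median over all genes was 0.14 in female VAT minus spleen Treg, and -0.15 and -0.13 in the differences of sex effects between tissues and between cell types. The sex, tissue and cell type comparisons of male VAT Treg share its 2 libraries, and the values of each are set side by side without a test across them.

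In VAT CD4 T cells, male against female, 1 member was higher (1.48%, 0.686% higher). Blimp1-deficient against Foxp3cre Treg gave 2 lower members in VAT (0.819%, 0.375% lower). With edgeR no member was called in 3 contrasts between groups. Male against female spleen Treg gave 0 (0.075%), with 0 members below 0.05 unadjusted, and DESeq2 called 0. Blimp1-deficient against Foxp3cre spleen Treg gave 0 (0.317%), with 3 below 0.05 unadjusted, and DESeq2 called 0. Blimp1-deficient VAT against spleen Treg gave 0 (1.26%), with 3 below 0.05 unadjusted, and DESeq2 called 1, Ctla4.

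**Figure D2:**
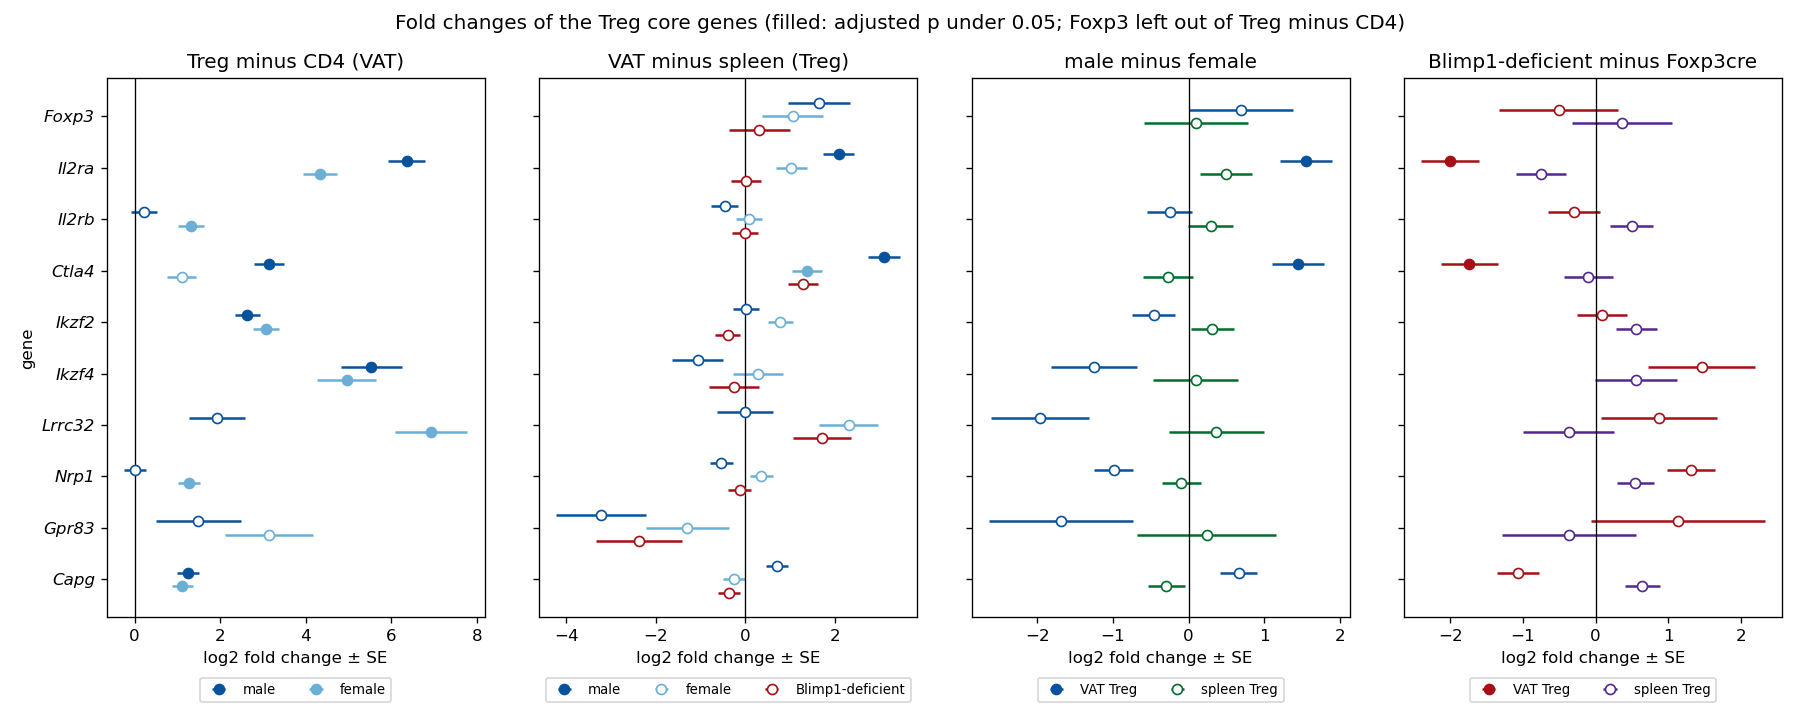
Log2 fold changes of the core genes with their standard errors in 4 panels, 1 for each kind of comparison; filled points passed an adjusted p under 0.05 and open points did not, and Foxp3 is left out of Treg minus CD4. The male minus female panel shows Treg only. Il2ra and Ctla4 are the only filled members in the VAT minus spleen, male minus female and Blimp1 panels, while most members are filled and positive in Treg minus CD4.

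Foxp3, on chromosome X (7579676 to 7595243, plus strand, GRCm38), was highest in VAT Treg. Its level was 804 and 592 CPM in male VAT Treg, against 475 and 389 CPM in female VAT Treg. Spleen Treg held 234 and 209 CPM in male pools and 181 and 234 CPM in female pools. All 4 VAT libraries of reporter mice thus lay above all 4 spleen libraries, and the VAT male libraries lay above the VAT female ones. None of these differences passed the test, with log2 fold changes of 1.66 ± 0.70 (SE, adjusted p = 0.205) for male VAT over spleen, 1.06 ± 0.69 (adjusted p = 0.514) for female VAT over spleen and 0.69 ± 0.68 (adjusted p = 1) for male over female VAT Treg.

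In the Cre lines every library lay below the VAT Treg of reporter mice for Foxp3, a comparison across mouse lines that was not tested. Blimp1-deficient VAT Treg held 185 and 111 CPM and the Foxp3cre VAT library 209.8 CPM. Blimp1-deficient spleen Treg held 101 and 137 CPM, and Foxp3cre spleen Treg 149.9 and 34.8 CPM. Foxp3cre spleen replicate 2, the lowest of the 15 Treg libraries for Foxp3, also held 6523 plain CPM of B cell markers, the most of any library. The part of that RNA in its Foxp3 level was not tested.

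Foxp3 was nearly absent from the CD4 T cells, as their sort requires: 0 and 4.41 CPM in males, and 0 in both female libraries. Against the limit set by 3 counts over the group, which covers counting error only, female VAT Treg held at least 3268-fold more. Its exons share 2082 of 4577 bases with exons of other genes, among them Flicr on the same strand (853 bases) and Ccdc22, Ppp1r3f and Gm36995 on the other. With the strand setting of the counting not given in the sources used here, reads of Foxp3 and these neighbours cannot be told apart there.

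Among 20 listed regulators and partners of Foxp3, 2 were higher and 2 lower in male than in female VAT Treg. Gata3, a factor of type 2 responses, was higher by 2.06 and Nr4a1, a T cell receptor-induced nuclear receptor, by 3.10 on the log2 scale. Satb1, a chromatin organiser, was lower, at -1.89, as was Nfatc1, a calcium-responsive factor, at -1.0. The list's median was -0.22 against -0.04 over all genes. In male VAT against spleen Treg 5 of the 20 were higher and 2 lower, with Gata3 at 3.61 and Nr4a1 at 5.49. In Blimp1-deficient against Foxp3cre VAT Treg only Nr4a1 was called in this list, at -2.68. Nr4a1 also belongs to the list of immediate early and dissociation stress genes described below.

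**Figure D3:**
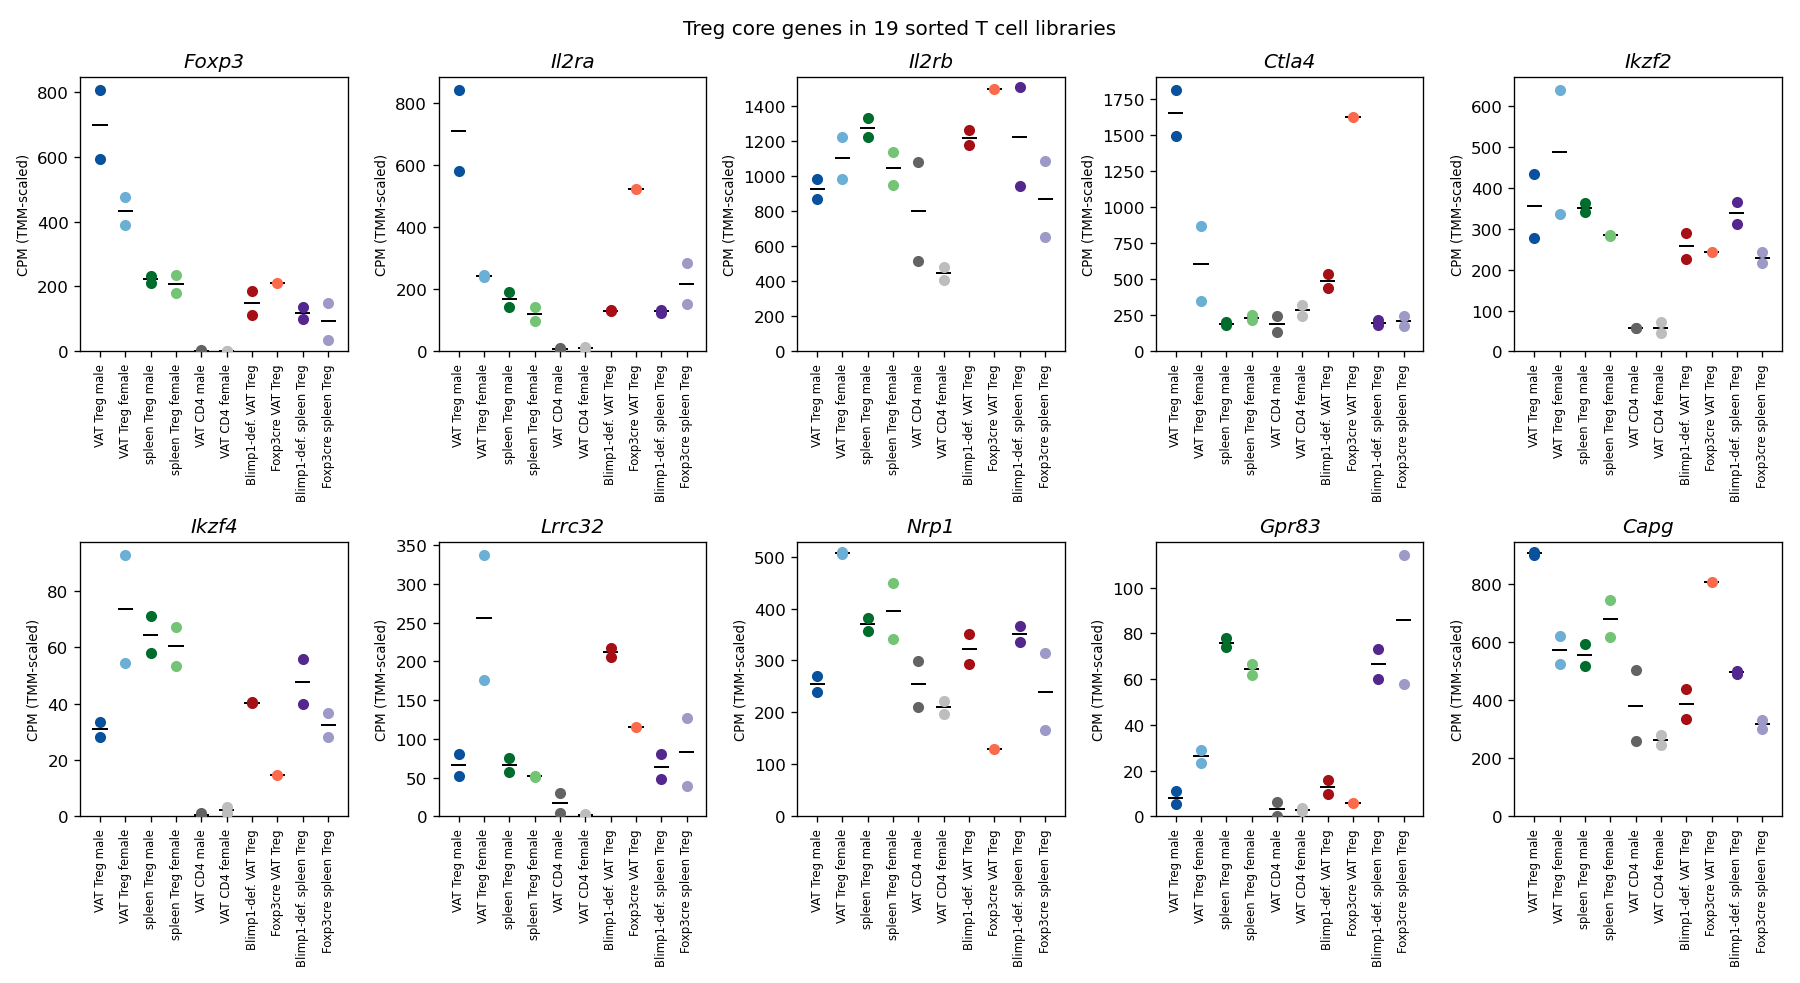
TMM-scaled CPM of each core gene (1 panel each) in every T cell library by group, with points for libraries and a black line for the group mean. Il2ra and Ctla4 peak in male VAT and Foxp3cre VAT Treg, Nrp1 and Lrrc32 in female VAT Treg, and Gpr83 in spleen Treg.

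Il2ra, the alpha chain that gives the interleukin-2 receptor its high affinity (chromosome 2, 11642792 to 11693194, plus strand), was highest in VAT Treg of males. Its CPM was 842 and 583 in male VAT Treg, against 247 and 240.2 in female VAT Treg. Spleen values were 143 and 192 in male Treg, against 142 and 96.4 in female Treg. Both male VAT libraries lay above every other library of the 19, and the group means were 712 ± 183 CPM in male VAT Treg and 243 ± 4.62 CPM in female VAT Treg (SD, n = 2 each).

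The sex difference of Il2ra in VAT Treg was 2.93-fold, a log2 fold change of 1.55 ± 0.35 (adjusted p = 0.0285, edgeR). Male VAT Treg held 4.25-fold more than male spleen Treg (2.09 ± 0.35, adjusted p = 0.00115). Female VAT Treg did not pass the test against female spleen Treg (1.03 ± 0.34, adjusted p = 0.153), nor did the spleen sex difference (0.49 ± 0.34). The difference between the sex effects of VAT and spleen was 1.06 ± 0.48 (adjusted p = 0.581), so they are not shown to differ. The VAT sex call was lost when female replicate 1 (1.57, adjusted p = 0.275), female replicate 2 (1.53, adjusted p = 0.166) or male replicate 1 (1.28, adjusted p = 0.293) was left out, and when only the groups compared were fitted (1.59, adjusted p = 0.188). The male VAT over spleen call held under all 10 alternatives, at 1.81 to 2.33.

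In the Cre lines Il2ra was 129.8 and 133 CPM in Blimp1-deficient VAT Treg, against 524 CPM in the Foxp3cre VAT library. Spleen held 125 and 134 CPM in Blimp1-deficient Treg, against 285 and 153 CPM in Foxp3cre Treg. The VAT values did not overlap and differed by -2.0 ± 0.40 on the log2 scale (adjusted p = 0.0219), a test in which the lone Foxp3cre library is assumed to vary like the other groups. Without Blimp1-deficient VAT replicate 1 or replicate 2 the change was -1.98 (adjusted p = 0.181) and -2.01 (adjusted p = 0.180). With a replicate block it was -1.88 (adjusted p = 0.055). In spleen the change was -0.75 ± 0.34 (adjusted p = 0.769), and the difference between the tissues was -1.24 ± 0.53 (adjusted p = 0.636).

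VAT CD4 T cells held little Il2ra, 12.2 and 5.50 CPM in male pools, against 9.23 and 14.7 CPM in female pools. Treg exceeded them 82.1-fold in males (6.36 ± 0.43, adjusted p = 1.44e-07) and by 4.34 ± 0.40 on the log2 scale in females. In order of group mean, male VAT Treg stood above Foxp3cre VAT Treg, which stood above female VAT Treg. Female VAT, Foxp3cre spleen and male spleen Treg overlapped with their neighbours in the order, as did both Blimp1-deficient groups with female spleen Treg, and both CD4 groups came last.

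Il2rb, the signalling chain shared with the interleukin-15 receptor (chromosome 15, 78479256 to 78511621, minus strand), overlapped between most groups. It was at 984 and 871 CPM in male VAT Treg, against 1222 and 984 CPM in female VAT Treg, and at 1329.8 and 1219.6 CPM in male spleen Treg, against 1134 and 951 CPM in female spleen Treg. In Cre spleen Treg it was at 1506 and 941 CPM with Blimp1 deficiency, against 1085 and 651 CPM in Foxp3cre Treg. Blimp1-deficient VAT Treg held 1175 and 1261 CPM, against 1497 CPM in Foxp3cre VAT Treg. From male spleen Treg down to male CD4 T cells each group's range overlapped that of the next. No difference among the Treg groups passed the test.

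CD4 T cells held 1080.4 and 514 CPM of Il2rb in male pools, against 408 and 482 CPM in female pools. Female Treg exceeded female CD4 T cells by 1.31 ± 0.30 (adjusted p = 0.0196), a call lost without either female CD4 library (1.22, adjusted p = 0.153, without replicate 1 and 1.44, adjusted p = 0.098, without replicate 2) or without female Treg replicate 1 (1.15, adjusted p = 0.129). The call was also lost when only those groups were fitted (1.28, adjusted p = 0.054).

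Of 15 listed genes of interleukin-2 signalling, 2 were higher and 1 lower in male than in female VAT Treg, with a list median of 0 against -0.04 over all genes. Cish, a feedback inhibitor induced by STAT5, averaged 652 CPM in male VAT Treg, against 241 CPM in female VAT Treg (1.43 ± 0.22, adjusted p = 0.0015). Pim1, a kinase, was higher by 1.42, and Stat5b, a transducer of the receptor, was lower at -1.09. Male VAT against spleen Treg gave Cish 2.14 and Pim1 2.39 as higher and Stat5b -0.89 and Bcl2, a survival gene, -1.27 as lower. In Blimp1-deficient against Foxp3cre VAT Treg only Cish of this list was called, at -1.69.

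Ctla4, an inhibitory receptor that competes with CD28 for its ligands (chromosome 1, 60909025 to 60915832, plus strand), was called together with Il2ra in the same 3 comparisons. It held 1815 and 1494 CPM in male VAT Treg, against 870.1 and 347 CPM in female VAT Treg. Spleen Treg held 203 and 183 CPM in male pools, against 251 and 214 CPM in female pools. Both male VAT libraries were above both female ones, the female libraries themselves lay far apart, and spleen Treg sat at the level of VAT CD4 T cells, with 132 and 243 CPM in male pools, against 319 and 249 CPM in female pools.

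Ctla4 was 2.72-fold higher in male than in female VAT Treg (1.44 ± 0.34, adjusted p = 0.0369). The means were 1654 ± 227 CPM in males and 609 ± 370 CPM in females (SD, n = 2 each). Without female replicate 1 the log2 fold change was 2.25 (adjusted p = 0.004). The call was lost without female replicate 2 (0.93, adjusted p = 0.316), male replicate 1 (1.32, adjusted p = 0.26) or male replicate 2 (1.58, adjusted p = 0.055), with only the groups compared (1.48, adjusted p = 0.379) and without the 4 libraries highest in markers of other cells (0.94, adjusted p = 0.054).

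Male VAT Treg held 8.57-fold more Ctla4 than male spleen Treg (3.10 ± 0.36, adjusted p = 2.75e-05), a call kept under all 10 alternatives. Female VAT Treg exceeded female spleen Treg by 1.39 ± 0.34 (adjusted p = 0.0451). That call was lost without VAT female replicate 1 (0.58, adjusted p = 0.492), spleen female replicate 1 (1.51, adjusted p = 0.199) or spleen female replicate 2 (1.28, adjusted p = 0.158), with a replicate block (1.35, adjusted p = 0.076), with DESeq2's size factors in edgeR (1.33, adjusted p = 0.052) and with only those groups (1.37, adjusted p = 0.194). Without VAT female replicate 2 it was 1.90. The difference between the sex effects in VAT and spleen was 1.71 ± 0.47 (adjusted p = 0.163), where edgeR called no member (0.531% of the tested genes passed), 5 members had an unadjusted p below 0.05, and DESeq2 called 1.

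Blimp1-deficient VAT Treg held 535 and 437 CPM of Ctla4, against 1622 CPM in the Foxp3cre VAT library (-1.74 ± 0.39, adjusted p = 0.0444). Without Blimp1-deficient replicate 1 or replicate 2 the change was -1.89 (adjusted p = 0.187) and -1.60 (adjusted p = 0.357), and with a replicate block -1.64 (adjusted p = 0.091). Spleen values overlapped, at 181 and 214 CPM in Blimp1-deficient Treg and 244 and 179 CPM in Foxp3cre Treg. Blimp1-deficient VAT Treg against Blimp1-deficient spleen Treg gave 1.30 ± 0.34 (adjusted p = 0.0746). The Blimp1 effect on Ctla4 in VAT minus that in spleen was -1.64 ± 0.52 (adjusted p = 0.321). Over all members edgeR called none for this difference (0.358% of the tested genes passed), and DESeq2 called 1. In edgeR 3 members had an unadjusted p below 0.05, of which Capg, not Ctla4, had the lowest (adjusted p = 0.0679).

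The order of Ctla4 means had male VAT and Foxp3cre VAT Treg, whose ranges overlapped, above female VAT and Blimp1-deficient VAT Treg, which overlapped too, and all spleen and CD4 groups below them in a chain of overlaps. Male Treg exceeded male CD4 T cells in Ctla4 by 3.14 ± 0.36 on the log2 scale, while female Treg did not pass the test (1.10 ± 0.34, adjusted p = 0.0858). The sex effect in Treg minus that in CD4 T cells was 2.04 ± 0.48 (adjusted p = 0.0969). Of 10 listed genes of the CTLA-4 pathway, 2 were lower and none higher in male than in female VAT Treg: Btla, an inhibitory receptor, at -2.41 and Trat1, an adaptor that helps bring CTLA-4 to the surface, at -1.91. The list's median was -0.61 against -0.04 over all genes. Btla was -3.28 and Trat1 -2.58 in male VAT against spleen Treg, and Btla was 2.08 in Blimp1-deficient against Foxp3cre VAT Treg.

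**Figure D4:**
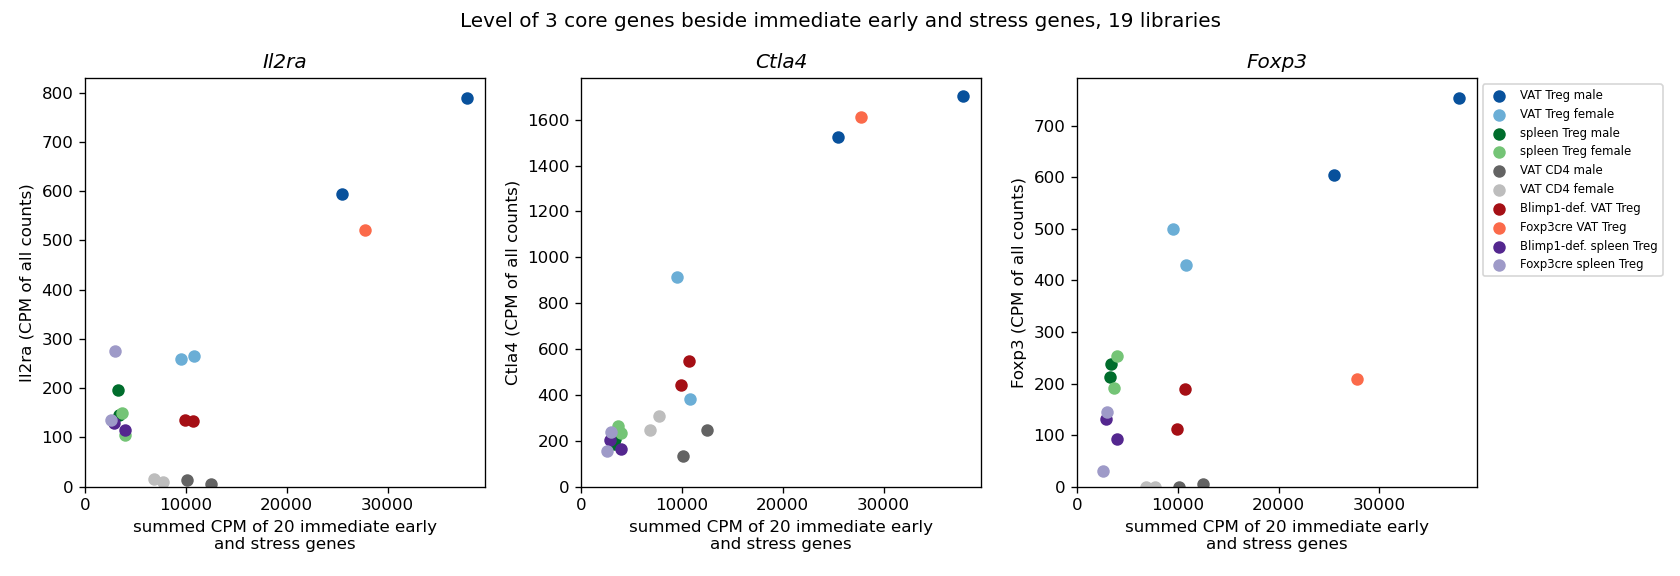
Plain CPM of Il2ra, Ctla4 and Foxp3 (1 panel each) in each T cell library against the summed plain CPM of 20 immediate early and stress genes, coloured by group. The male VAT Treg and Foxp3cre VAT libraries, at 25442 to 37925 summed CPM, lie to the right of all others and hold the highest Il2ra and Ctla4.

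The libraries high in Il2ra and Ctla4 were also those high in immediate early and dissociation stress genes. A list of 20 such genes, among them Fos, Jun, Egr1 and Hspa1a, summed to 37925 and 25442 plain CPM in male VAT Treg, against 9533 and 10776 in female VAT Treg. The sum was 10725 and 9876 in Blimp1-deficient VAT Treg, against 27798 in the Foxp3cre VAT library. It was 2556 to 3987 in the 8 spleen libraries, 10095 and 12535 in male CD4 T cells and 7694 and 6865 in female CD4 T cells. Of these genes 9 were higher and none lower in male than in female VAT Treg, 14 were higher in male VAT than in spleen Treg, and 4 were lower in Blimp1-deficient than in Foxp3cre VAT Treg. The part of this state in the Il2ra and Ctla4 differences was not tested.

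Summed markers of ILC2, innate lymphoid cells that were sorted here on CD25 among other markers, were also highest in male VAT Treg and the Foxp3cre VAT library. The 6 markers summed to 242 and 210 plain CPM in male VAT Treg, against 19.0 and 59.4 in female VAT Treg, with all 6 detected in each library. They summed to 48.5 to 75.6 in Blimp1-deficient VAT Treg, with 4 to 5 of 6 detected, against 157 in Foxp3cre VAT Treg, with 6 of 6. The spleen Treg libraries held 33.9 to 73.2 and the CD4 libraries 47.6 to 97.0, so female VAT Treg did not stand above either. Only 1 of the 6 was called higher in male than in female VAT Treg, and none was called in Blimp1-deficient against Foxp3cre VAT Treg. Il9r, a cytokine receptor gene, made up the largest share of the male sums, at 107.5 and 61.2 plain CPM in male VAT Treg, against 5.06 and 20.1 in female VAT Treg. Il13 was at 58.5 and 25.6 plain CPM in male VAT Treg, against 1.275 and 0.039 in female VAT Treg. For Calca the values were 29.8 and 58.5 in males, against 2.06 and 1.24 in females, and for Lmo4 38.5 and 47.8, against 7.61 and 24.6. The other markers of the list overlapped between the sexes. Hes1 was at 5.99 and 12.5 in males, against 1.01 and 8.66 in females, and Arg1 at 1.46 and 4.58, against 1.95 and 4.75. Sorted ILC2 of VAT averaged 966 plain CPM of Il2ra in males and 908 in females. Ctla4 was at 3.91 to 9.11 plain CPM in the ILC2 libraries, while the part of ILC2 RNA in the Il2ra difference was not tested.

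Ikzf2, which encodes the Ikaros family factor Helios (chromosome 1, 69531207 to 69687351, minus strand), separated Treg from CD4 T cells in every library. It stood at 434 and 277 CPM in male VAT Treg, against 56.7 and 57.6 CPM in male CD4 T cells. Female VAT Treg held 641 and 337 CPM, against 71.3 and 44.4 CPM in female CD4 T cells. The differences were 2.64 ± 0.30 in males (adjusted p = 4.6e-05) and 3.08 ± 0.31 in females.

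Among the Treg groups Ikzf2 values lay closer together. Spleen Treg held 363 and 341 CPM in male pools, against 283 and 285 CPM in female pools. Blimp1-deficient VAT Treg held 227 and 289.7 CPM, against 243 CPM in Foxp3cre VAT Treg, and Blimp1-deficient spleen Treg held 365 and 311 CPM, against 215 and 243 CPM in Foxp3cre spleen Treg. No difference between Treg groups passed the test, and in the order of means, from female VAT Treg (489) to Foxp3cre spleen Treg (229), ranges of neighbours overlapped except between Blimp1-deficient and female spleen Treg.

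Ikzf4, which encodes the relative Eos, a Foxp3 corepressor (chromosome 10, 128630839 to 128669671, minus strand), was low but also marked Treg. The male values were 33.6 and 28.1 CPM in VAT Treg, against 0 and 1.09 CPM in male CD4 T cells (5.53 ± 0.71). Female VAT Treg held 92.5 and 54.5 CPM, against 1.34 and 3.38 CPM in female CD4 T cells (4.95 ± 0.68). The male VAT Treg libraries lay below the female ones, and below the spleen Treg of both sexes, at 57.8 and 70.9 CPM in male pools, against 53.4 and 67.1 CPM in female pools. Neither the sex difference in VAT (-1.25 ± 0.57, adjusted p = 0.608) nor male VAT against spleen (-1.06 ± 0.57, adjusted p = 0.345) passed the test.

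In the order of means each Treg group down to Blimp1-deficient VAT Treg overlapped its neighbour, while the Foxp3cre VAT library stood alone above the CD4 groups. The Cre lines held 40.5 and 40 CPM of Ikzf4 in Blimp1-deficient VAT Treg, against 14.6 CPM in Foxp3cre VAT Treg (1.46 ± 0.74, adjusted p = 0.636). Spleen held 55.6 and 39.9 CPM in Blimp1-deficient Treg, against 36.5 and 28.3 CPM in Foxp3cre Treg. Of the 5 Ikaros family genes, which include both members, Ikzf1, the founding member, was lower in Treg than in CD4 T cells, at -1.27 in males and -1.16 in females. No other comparison among those described called a gene of this family.

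When only the male VAT Treg and CD4 groups were fitted, no member was called between them, with log2 fold changes of 6.33 for Il2ra (adjusted p = 0.197), 5.66 for Ikzf4 (adjusted p = 0.434), 3.13 for Ctla4 (adjusted p = 0.249), 2.62 for Ikzf2 (adjusted p = 0.249) and 1.23 for Capg (adjusted p = 0.434).

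Lrrc32 encodes GARP, which holds latent TGF-beta on the Treg surface (chromosome 7, 98489305 to 98501831, plus strand). It was highest in female VAT Treg. Libraries of male VAT Treg held 80.1 and 51.7 CPM, against 337 and 176 CPM in female VAT Treg. Spleen Treg held 57.3 and 75.4 CPM in male pools, against 52.3 and 50.9 CPM in female pools. The VAT ranges of the sexes did not overlap, but the difference did not pass the test (-1.96 ± 0.65, adjusted p = 0.236), nor did female VAT over spleen Treg (2.31 ± 0.66, adjusted p = 0.0852).

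Without the 4 libraries highest in markers of other cells, the log2 fold change of Lrrc32 between the sexes in VAT Treg was -2.33. That fit drops VAT Treg female replicate 2 but no male VAT Treg library. Blimp1-deficient VAT Treg held 206 and 218 CPM, against 115 CPM in Foxp3cre VAT Treg (0.88 ± 0.80), and 80.1 and 48.2 CPM in spleen, against 127 and 39.1 CPM in Foxp3cre spleen Treg. Lrrc32 of Blimp1-deficient VAT Treg lay above that of Blimp1-deficient spleen Treg, at 1.72 ± 0.64 (adjusted p = 0.298).

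Ranked by mean, female VAT and Blimp1-deficient VAT Treg overlapped at the top, the other Treg groups followed in a chain of overlaps, and the CD4 groups were last. In CD4 T cells Lrrc32 was 4.24 and 29.7 CPM in male pools, against 3.23 and 0.952 CPM in female pools. Female Treg exceeded female CD4 T cells by 6.94 ± 0.84 on the log2 scale, a call kept under all 10 alternatives, while male Treg did not pass the test (1.93 ± 0.65, adjusted p = 0.187). CD4 T cells of males were called higher than those of females (3.05 ± 0.74, adjusted p = 0.0487). The sex effect in Treg minus that in CD4 T cells was -5.01 ± 0.99 (adjusted p = 0.0335). Lrrc32 was the only member edgeR called for this difference, where 0.317% of all genes were called and 0.179% were lower.

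Neither of these last 2 calls held in every fit. Without male CD4 replicate 2 the CD4 sex difference of Lrrc32 was 1.03 (adjusted p = 0.567) and the difference of sex effects -2.98 (adjusted p = 0.0896). Without female CD4 replicate 1 they were 4.21 (adjusted p = 0.117) and -6.15 (adjusted p = 0.0558), and without female CD4 replicate 2 they were 2.42 (adjusted p = 0.360) and -4.38 (adjusted p = 0.191). The difference of sex effects was also lost without 3 of the 4 VAT Treg libraries, at -4.46 without female replicate 1 (adjusted p = 0.131), -5.33 without male replicate 1 (adjusted p = 0.0973) and -4.73 without male replicate 2 (adjusted p = 0.100). Without the 4 libraries highest in the sum of all marker lists, male CD4 replicate 2 among them, it passed the test at -3.37 (adjusted p = 0.0244), while the CD4 sex difference did not (1.04, adjusted p = 0.344).

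Male CD4 replicate 2 was the library with the highest sum over macrophage, fibroblast, endothelial and adipocyte markers. Male CD4 libraries ranged from 482 to 5093 plain CPM for macrophage markers (14 of 14 detected), 459 to 2269 for fibroblasts (10 of 10), 229 to 1059 for endothelial cells (10 to 11 of 11) and 208 to 2148 for adipocytes (6 to 7 of 7). The female CD4 libraries ranged from 245 to 335 for macrophages (13 of 14), 75.3 to 102 for fibroblasts (9 of 10), 122 to 141 for endothelial cells (9 to 10 of 11) and 75.9 to 165 for adipocytes (2 to 5 of 7). Lrrc32 itself averaged 28.6 plain CPM in sorted male adipocytes, 160 in female adipocytes and 40.3 to 79.1 in the stromal groups. The part of such RNA in the CD4 values was not tested.

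**Figure D5:**
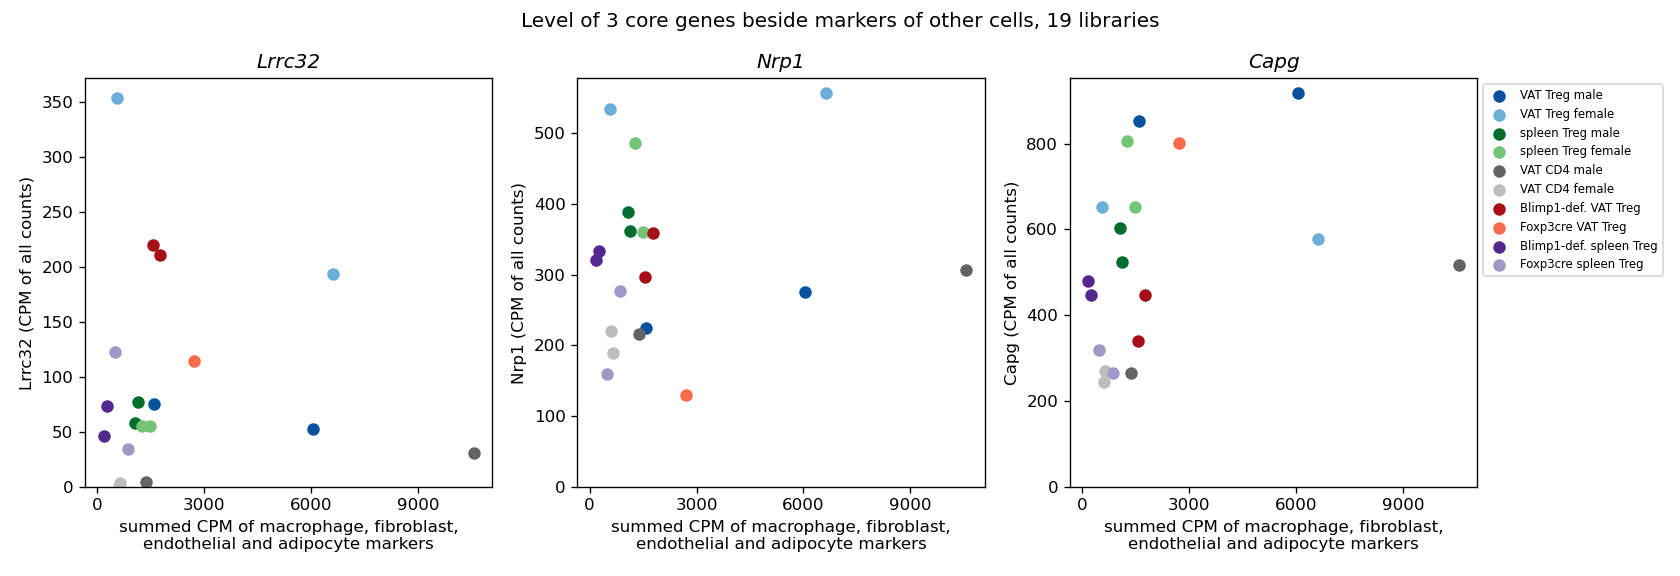
Plain CPM of Lrrc32, Nrp1 and Capg (1 panel each) in each T cell library against the summed plain CPM of macrophage, fibroblast, endothelial and adipocyte markers. VAT CD4 male replicate 2, at 10569 summed CPM, is the library farthest right and the highest of the 4 CD4 libraries for all 3 genes.

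Of 14 listed genes of TGF-beta activation and reception, none was called between male and female VAT Treg, with a median of -0.03 against -0.04 over all genes. In Treg against CD4 T cells Tgfb1, the cytokine GARP holds, was higher by 1.29 in males and 1.02 in females, and Itgav, an integrin chain that releases it, by 1.47 in males. Male VAT Treg also exceeded male spleen Treg in Tgfb1 (0.95) and Furin (2.30), the protease that processes its precursor.

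Nrp1, neuropilin-1, a semaphorin co-receptor on thymus-derived Treg of mice (chromosome 8, 128358591 to 128505476, plus strand), was also highest in female VAT Treg. Nrp1 was at 239.7 and 270.1 CPM in male VAT Treg, against 508 and 504 CPM in female VAT Treg. Values in spleen were 382 and 356 CPM in male Treg, against 341 and 449 CPM in female Treg. Both male VAT Treg libraries lay below every spleen Treg library of reporter mice and at the level of CD4 T cells, which held 210.5 and 299 CPM in male pools, against 197 and 222 CPM in female pools.

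The sex difference of Nrp1 in VAT Treg was -0.99 ± 0.26 and missed the threshold (adjusted p = 0.0637). It passed with DESeq2 (adjusted p = 0.022) and with no filter on low counts in edgeR (adjusted p = 0.025). Without the 4 libraries highest in markers of other cells, which drops a female but no male VAT Treg library, the value was -0.98. Female Treg exceeded female CD4 T cells by 1.27 ± 0.26 (adjusted p = 0.0077), lost without female CD4 replicate 1 (1.22, adjusted p = 0.087) or replicate 2 (1.36, adjusted p = 0.0557). In males the means were 255 CPM in both Treg and CD4 T cells, and the sex effect in Treg minus that in CD4 T cells was -1.27 ± 0.36 (adjusted p = 0.191).

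Blimp1-deficient VAT Treg held 351 and 292 CPM of Nrp1, against 129.8 CPM in the Foxp3cre VAT library, the lowest of all 19. That difference was 1.31 ± 0.33 and did not pass the test (adjusted p = 0.082). Blimp1-deficient spleen Treg held 366 and 336 CPM, against 166 and 314 CPM in Foxp3cre spleen Treg. By mean, female VAT Treg stood clear at the top, and below it female spleen, male spleen, Blimp1-deficient spleen and Blimp1-deficient VAT Treg each overlapped the next in that order. Nrp1 is widely expressed outside T cells, with 841 plain CPM in GP38-negative stroma of males and 753 in that of females. Of 12 listed semaphorin and plexin partners, none was called between the sexes in VAT Treg, and 3 were higher in male VAT than in spleen Treg, among them Plxna1 (3.47) and Sema4a (2.25).

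Gpr83, a G protein-coupled receptor (chromosome 9, 14859880 to 14870789, plus strand), was highest in spleen Treg. It was at 11 and 5.3 CPM in male VAT Treg, against 78 and 73.9 CPM in male spleen Treg. Female VAT Treg held 29.2 and 23.3 CPM, against 66.8 and 62 CPM in female spleen Treg. Every VAT Treg library lay below every spleen Treg library, Cre lines included, where VAT held 9.84 and 15.8 CPM in Blimp1-deficient Treg and 5.82 CPM in Foxp3cre Treg, and spleen 73.3 and 60 CPM in Blimp1-deficient Treg and 114 and 57.7 CPM in Foxp3cre Treg.

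None of the Gpr83 contrasts passed the test. The log2 fold change was -3.22 ± 1.00 for male VAT against spleen Treg (adjusted p = 0.0641), -1.29 ± 0.93 for female VAT against spleen Treg (adjusted p = 0.558) and -2.38 ± 0.96 for Blimp1-deficient VAT against spleen Treg (adjusted p = 0.372). Between the sexes in VAT Treg it was -1.69 ± 0.95 (adjusted p = 0.874). The CD4 T cells held 6.23 and 0 CPM in male pools, against 3.76 and 2.16 CPM in female pools, and male VAT Treg against male CD4 T cells did not pass the test (1.49 ± 0.99). From Foxp3cre spleen Treg, the highest group, the order ran through the other spleen groups to female VAT Treg, and below it the remaining VAT groups overlapped one another in sequence. Outside T cells the group means were 0 to 0.742 plain CPM.

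Capg (chromosome 6, 72538282 to 72562983, plus strand) was highest in male VAT Treg, at 909 and 899.9 CPM, against 619 and 523 CPM in female VAT Treg. Spleen Treg held 594 and 516 CPM in male pools, against 616 and 745 CPM in female pools. The male VAT libraries lay above every other library. The differences were 0.66 ± 0.24 between the sexes in VAT (adjusted p = 0.349) and 0.70 ± 0.24 between male VAT and spleen (adjusted p = 0.103), and neither passed the test.

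Treg held more Capg than CD4 T cells, which had 258 and 504 CPM in male pools, against 282 and 247 CPM in female pools. The difference was 1.25 ± 0.25 in males (adjusted p = 0.00795) and 1.11 ± 0.25 in females (adjusted p = 0.0147). The male call was lost without male Treg replicate 1 (1.23, adjusted p = 0.0563) or male CD4 replicate 1 (0.84, adjusted p = 0.0588). The female call was lost without female CD4 replicate 1 (1.23, adjusted p = 0.0677), female CD4 replicate 2 (1.02, adjusted p = 0.143) or female Treg replicate 1 (0.98, adjusted p = 0.108), and with only those groups (1.08, adjusted p = 0.0615).

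By mean, male VAT Treg was followed by Foxp3cre VAT Treg without overlap, then by female spleen, female VAT and male spleen Treg in a chain of overlaps. Capg in the Cre lines was 437 and 335 CPM in Blimp1-deficient VAT Treg, against 805 CPM in Foxp3cre VAT Treg (-1.06 ± 0.29, adjusted p = 0.121). In spleen it was 489.7 and 501 CPM in Blimp1-deficient Treg, against 331 and 302 CPM in Foxp3cre Treg (0.65 ± 0.24). The directions thus differed between the tissues, and the difference of the Blimp1 effects was -1.71 ± 0.38 (adjusted p = 0.0679), which missed the threshold.

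A wider list of 20 Treg genes also split between directions. In Treg against CD4 T cells 9 were higher and 1 lower in males, and 11 were higher and none lower in females, with list medians of 1.08 in males, against 0 over all genes, and 1.64 in females, against 0.21 over all genes. Tnfrsf18, which encodes GITR, was higher by 1.41 in males and 1.02 in females, Itgae, the integrin CD103, by 3.69 in males and 7.61 in females, and Ebi3, an interleukin-35 subunit, by 2.49 in males and 4.06 in females. In male against female VAT Treg 1 was higher and 5 were lower (median -0.56). The cytokine gene Il10 averaged 1072 CPM in male cells, against 69.3 CPM in female cells (3.95 ± 0.95, adjusted p = 0.0413). Izumo1r, folate receptor 4, stood at 202 CPM in male cells, against 819 CPM in female cells (-2.02 ± 0.21, adjusted p = 2.14e-05), and Nt5e, the ecto-enzyme CD73, stood at 34.2 CPM in male cells, against 212 CPM in female cells (-2.63 ± 0.28). In Blimp1-deficient against Foxp3cre VAT Treg Izumo1r (1.92) and Nt5e (2.25) were higher, and Il10 (-5.74) and Tnfrsf18 (-1.17) were lower.

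The members also differed in which genes they resembled over the 19 libraries, by Pearson's r of log2 CPM among 9924 genes. The nearest to Foxp3 were Rln3 (0.96), Ebi3 (0.94) and Flicr (0.94), the last of which shares exon bases with it, and those nearest to Il2ra were Rln3 (0.94), Nfkb1 (0.89) and Tnfrsf18 (0.88). Ctla4 lay nearest to Il1rl1, the interleukin-33 receptor (0.93), Nfkbid (0.92) and Areg (0.92). Ikzf4 was nearest to Tnfrsf4 (0.93), Ikzf2 to Reps1 (0.93), Lrrc32 to Ebi3 (0.91), Nrp1 to Scin (0.86), Gpr83 to Trim14 (0.92), Capg to Tmbim1 (0.90) and Il2rb to Lrp10 (0.91).

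Within the set, over the 15 Treg libraries, Il2ra and Ctla4 had r = 0.83, Ikzf4 and Nrp1 0.83 and Foxp3 and Capg 0.79, while Ctla4 and Gpr83 had r = -0.89. These correlations describe libraries that share tissue, sex and genotype groups, and they carry no p.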

How the data were processed

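RNA of 19 pooled T cell libraries was measured. Whole-number counts per gene and log2 FPKM values were deposited by the authors. Per the submitters' processing notes the tools were Subread 1.6.2, featureCounts and limma on GRCm38 (mm10), with the annotation, strand setting and filters not given in the sources used here. Of 27179 gene IDs, 16534 took a symbol from the files, 8784 from a RefSeq table and 1861 none. The table held 6 columns that matched no sample used here, and they were left out.

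The counts the authors deposited were analysed in R 4.3.3 with edgeR 4.0.16 (TMM, a filter on low counts by group, quasi-likelihood test, all 19 libraries in 1 fit without covariates), giving 17340 genes tested. Adjusted p-values are Benjamini-Hochberg over those genes, and each standard error is the absolute log2 fold change over the root of the F statistic. DESeq2 1.42.0, other size factors, no filter, only the groups compared, a replicate block, leaving out each library and leaving out 4 libraries highest in markers of other cells were alternatives. The log2 FPKM the authors deposited served only to compare levels between genes. The script was tested on simulated counts with independent noise between libraries. Those counts held no differences between libraries in RNA of other cells, so that test does not check the calls against such differences. Replicates of each of the 9 groups with more than 1 library differed beyond sampling noise (chi-square per degree of freedom 43.8 to 235). Nothing says that pools came from separate mice, so p-values measure the spread between these pools, which may be technical. The log2 difference between a group's replicates was taken for each of 8858 genes. These differences correlated between groups at -0.15 to 0.48 over 36 group pairs, so pairing was not established. The highest r, 0.48, was between male VAT Treg and male VAT CD4 T cells.

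All 10 members were named whatever their result. Of each list, genes called, or those with the lowest adjusted p, were named, and the 3 genes with the highest Pearson r over log2 CPM (prior count 2) among genes of at least 5 CPM, without gene-model symbols. Members and lists were chosen with earlier results of these data known. Markers of other cells were 12 lists of 99 genes, 98 of them found. Gene coordinates are those of RefSeq on GRCm38, and shared exons come from a GENCODE annotation of that build.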

Additional observations from a re-analysis of the deposited data

Results flagged for a closer look

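For Lrrc32, the sex effect in VAT Treg differed from that in VAT CD4 T cells by a test of the difference itself, at -5.01 ± 0.99 on the log2 scale (adjusted p = 0.0335, edgeR). Lrrc32 had group means of 65.9 CPM in male and 256 CPM in female VAT Treg, and of 17.0 CPM in male and 2.09 CPM in female CD4 T cells. Without VAT CD4 male replicate 2, which held 29.7 CPM of Lrrc32 and 10569 summed plain CPM of macrophage, fibroblast, endothelial and adipocyte markers, the value was -2.98 (adjusted p = 0.0896). Without the 4 libraries highest in the sum of all marker lists, that one among them, it was -3.37 and passed the test (adjusted p = 0.0244). It missed the threshold in 8 of 14 alternatives, which gave -6.15 to -2.98. The part of RNA from those cells was not tested.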

How the results depend on the processing

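Counts were recomputed under each alternative for the 13 comparisons. Reported counts of genes called were 280 for the VAT Treg sex difference, 13 for the spleen sex difference, 256 for the CD4 sex difference, 1137 for male and 296 for female VAT minus spleen Treg, 422 for male and 613 for female Treg minus CD4, 142 for Blimp1 in VAT, 55 for Blimp1 in spleen, 219 for Blimp1-deficient VAT minus spleen Treg, 92 for sex by tissue, 55 for sex by cell type and 62 for Blimp1 by tissue.

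With DESeq2 the counts of genes in that order were 563, 313, 1227, 2158, 1361, 997, 1592, 600, 322, 810, 462, 414 and 402. DESeq2 called 3 members in the CD4 sex difference, 4 in male and 2 in female VAT minus spleen Treg, 4 for Blimp1 in VAT, 1 in Blimp1-deficient VAT minus spleen Treg, 1 for sex by tissue, 4 for sex by cell type and 1 for Blimp1 by tissue. Without a filter on low counts, members called were 4 for the VAT Treg sex difference, 2 for the CD4 sex difference, 2 for female VAT minus spleen, 1 for Blimp1-deficient VAT minus spleen, 1 for sex by tissue, 3 for sex by cell type and 1 for Blimp1 by tissue. Genes called without the filter were 23 for the spleen sex difference, 522 for the CD4 sex difference, 575 for female VAT minus spleen, 269 for Blimp1 in VAT, 147 for Blimp1 in spleen, 445 for Blimp1-deficient VAT minus spleen, 166 for sex by tissue, 120 for sex by cell type and 133 for Blimp1 by tissue. The gene count without the filter for the VAT Treg sex difference was computed but is not printed here. Its 4 members therefore stand without a share and are not read as a result. DESeq2's size factors in edgeR left 0 members in female VAT minus spleen Treg.

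With only the groups compared, members called were 0 for the VAT Treg sex difference, the CD4 sex difference, female VAT minus spleen, male Treg minus CD4 and sex by cell type, 6 for male VAT minus spleen, 4 for Blimp1 in VAT, 3 for Blimp1-deficient VAT minus spleen and 1 for Blimp1 by tissue. Genes called in those smaller fits, which rest on fewer samples, were 0 for the VAT Treg and CD4 sex differences, male Treg minus CD4 and sex by cell type, 3 for the spleen sex difference, 1 for female VAT minus spleen, 167 for female Treg minus CD4, 615 for Blimp1 in VAT, 8 for Blimp1 in spleen, 774 for Blimp1-deficient VAT minus spleen, 40 for sex by tissue and 158 for Blimp1 by tissue. The gene count of that fit for male VAT minus spleen was computed but is not printed here. Its 6 members therefore stand without a share and are not read as a result.

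Without the 4 libraries highest in markers of other cells, members called were 5 for the VAT Treg sex difference, 3 for the CD4 sex difference, 5 for male and 3 for female VAT minus spleen, 4 for Blimp1 in VAT, 3 for Blimp1-deficient VAT minus spleen, 2 for sex by tissue, 4 for sex by cell type and 1 for Blimp1 by tissue. Genes called were then 498, 404 and 665 for the sex differences of VAT Treg, spleen Treg and CD4, 2086 and 817 for male and female VAT minus spleen, 970 for male Treg minus CD4, 466 for Blimp1 in VAT, 602 for Blimp1-deficient VAT minus spleen, 608 for sex by tissue, 295 for sex by cell type and 121 for Blimp1 by tissue. Signs turned for 3 uncalled values, Il2ra in the CD4 sex difference (0.0429, reported -0.47), Capg in the same comparison (-0.0183, reported 0.53) and Capg in female VAT minus spleen (0.0284, reported -0.25). The cause was not tested.

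The replicate block left 0 members in the CD4 sex difference, female VAT minus spleen, Blimp1 in VAT and sex by cell type, where Lrrc32 was 3.21 (adjusted p = 0.077) in CD4 and -5.15 (adjusted p = 0.077) for the difference of sex effects. Genes called with the replicate block were 33 for sex by cell type and 35 for Blimp1 by tissue, and the block changed no other call of a member.

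Leaving out each library in turn gave 0 to 1 members and 94 to 207 genes for the VAT Treg sex difference, 0 members and 10 to 239 genes for the spleen sex difference and 0 to 4 members and 77 to 588 genes for the CD4 sex difference. It gave 2 members and 405 to 789 genes for male VAT minus spleen, 0 to 1 members and 78 to 529 genes for female VAT minus spleen, 5 to 7 members and 183 to 692 genes for male Treg minus CD4 and 5 to 9 members and 310 to 365 genes for female Treg minus CD4, where 5 were called without either CD4 female library, 6 without Treg female replicate 1 and 9 without Treg female replicate 2. Blimp1 gave 0 members in every case, with 44 to 51 genes in VAT, 1 to 93 in spleen, 54 to 112 for Blimp1-deficient VAT minus spleen and 21 to 76 for Blimp1 by tissue. Sex by tissue gave 0 to 1 members and 48 to 251 genes, and sex by cell type 0 to 4 members and 15 to 211 genes. The highest member count of the CD4 sex difference came without male replicate 1, and that of sex by cell type without either CD4 male library. Each such fit rests on the other male CD4 library alone. Without replicate 1 that is male CD4 replicate 2, the library highest in macrophage, fibroblast, endothelial and adipocyte markers.

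Signs turned with a library left out for Gpr83 in sex by cell type (-2.76 to 7.70), the highest without VAT CD4 male replicate 1. That fit rests on VAT CD4 male replicate 2 for male CD4 T cells, a library with 0 counts of Gpr83. In the CD4 sex difference, signs turned for Il2ra (-1.12 to 0.0258) and Capg (-0.0323 to 0.93) without VAT CD4 male replicate 2. Without VAT Treg female replicate 1 they turned for Ikzf2 in the VAT Treg sex difference (-0.85 to 0.0776) and in sex by cell type (-0.83 to 0.0950). Of the 30 nearest genes, 7 were shared with Spearman's rho and 21 with a prior count of 0.5. With 2 pools a group, and 1 for Foxp3cre VAT, the number of libraries limits the precision of every comparison.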
